A study of Mus musculus with 6 samples.

Results

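The laminin and integrin genes of mouse islets are described here in FXR+/+ and FXR-/- mice. All genes whose symbol is that of a laminin alpha, beta or gamma chain or of an integrin alpha or beta chain were taken, which gave 37 of the 19342 genes in the count table: 11 laminin chains, 18 alpha integrins and 8 beta integrins. The series holds RNA-seq of islets isolated from the pancreas of 3-month-old mice, with 3 libraries from wild-type (FXR+/+) and 3 from FXR knockout (FXR-/-) mice. Each genotype had 1 female and 2 male libraries, named below female 1, male 1 and male 2, and no drug or diet treatment is given. FXR, encoded by Nr1h4, is the nuclear receptor for bile acids, and the study used the comparison to find genes that change in islets when FXR is lost. The mice are given as FXR knockouts on a C57Bl/6 background. Whether a library was made from 1 mouse or from several is not given in the sources used here, so the p-values measure only the spread between these libraries.

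Laminins are cross-shaped trimers of an alpha, a beta and a gamma chain that form the sheet of a basement membrane together with collagen IV, nidogen and perlecan. Integrins are receptors of an alpha and a beta chain that hold cells to laminin, collagen, fibronectin or other cells and pass the contact on to the cytoskeleton. In mouse islets the basement membrane lies mainly around the capillaries and is made largely by endothelial cells, and beta cells bind it through integrins that contain the beta1 chain.

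The libraries held 20629306 to 30139235 counts, of which 0.0731 to 0.0883% belonged to the laminin and integrin genes. Both insulin genes made up 17.5 to 23.86% of the counts, and the 20 acinar marker genes, those of the enzyme-secreting exocrine cells around the islets, made up 4.52 to 13.21% with the highest shares in male 1 of both genotypes. For Nr1h4 the FXR+/+ libraries held 333, 274 and 386 counts (female 1, male 1, male 2) and the FXR-/- libraries 140, 145 and 138, lower in every knockout library but not absent. Levels below are in CPM, counts scaled to the library size after TMM normalization, and keep that order of libraries.

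All 37 genes had counts, and the beta1 integrin chain was far above the rest. Per kilobase of exon, the level of Itgb1 in FXR+/+ was 46.0 ± 2.72 CPM per kb (SD, n = 3), followed by Itgb5 at 13.5 ± 1.38, Itgav at 11.4 ± 1.76, Itga3 at 8.27 ± 0.432, Lamc1 at 6.51 ± 0.43 and Itga6 at 4.77 ± 0.19 CPM per kb. The libraries of Itgb5 and Itgav overlapped, whereas those of the other neighbours in this order down to Itga4, at 3.19 ± 0.244 CPM per kb, did not. From Itga4 down to Lama5, at 1.86 ± 0.484 CPM per kb, each neighbour overlapped the next. The FXR+/+ means of these laminins came in the order Lamc1, Lamb2, Lamb1, Lama5, Lama4 and Lama3. The embryonic laminin chain Lama1 was the lowest member at 0.0122 ± 0.00167 CPM per kb, and it was left out of the tests with Itga11 and Itgae because of low counts, leaving 34 tested members.

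**Figure D1:**
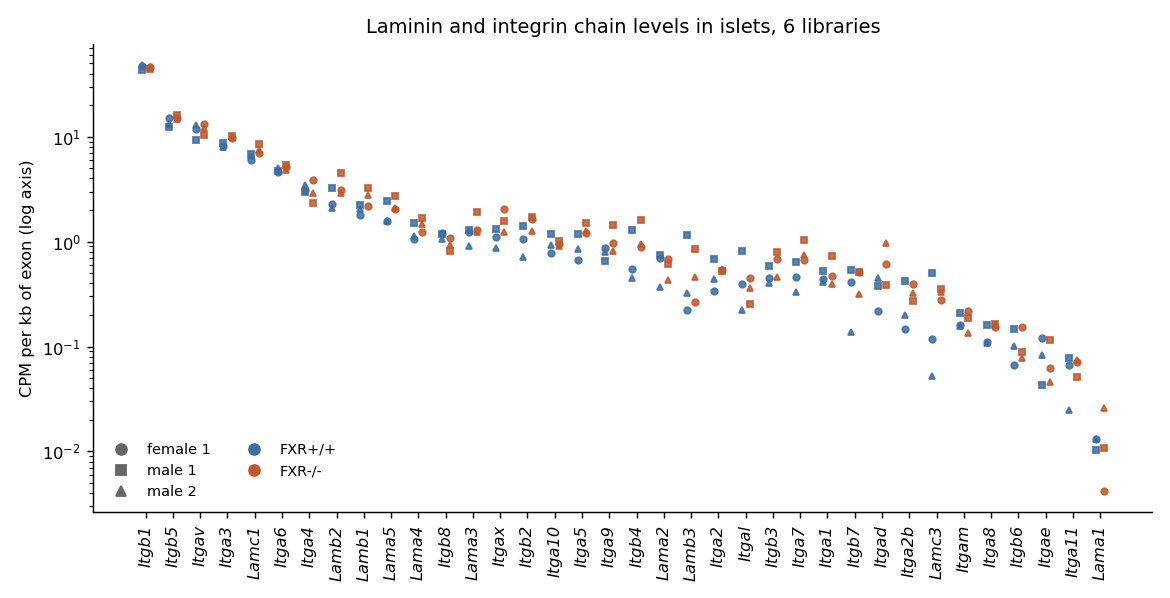
Level of 36 laminin and integrin genes in CPM per kb of exon (log axis), ordered by the FXR+/+ mean; each point is 1 library, blue for FXR+/+ and orange for FXR-/-, with the shape giving the replicate. Itgb1 lies near 46.0 CPM per kb in both genotypes, and the points of the genotypes overlap for most genes.

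No laminin or integrin gene passed the test for a difference between the genotypes, but most had a positive log2 fold change in FXR-/-. With edgeR's quasi-likelihood test and sex as a term, 0 of the 34 tested members had an adjusted p (Benjamini-Hochberg over all 14619 tested genes) under 0.05, and 0.0% of all tested genes did. The lowest adjusted p of a member was 0.367, for Lamb1. Under the replicate block, which compares same-numbered libraries, 0 members were called against 0.157% of all genes, and with DESeq2 0 members against 1.06% of all genes. At an unadjusted p under 0.05, 7 members were higher in FXR-/- (Lamb1, Lamc1, Itga3, Itga5, Itga7, Itgad and Itgax), which is 7 of 34 beside 6.18% of all tested genes, and 1 was lower (Itgb8), beside 4.15%. Under the replicate block 13 members were higher at an unadjusted p under 0.05, beside 9.82% of all genes, and 1 was lower, beside 6.23%. These unadjusted calls are a description of which members stood out, not changes that passed the test.

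The log2 fold change was above 0 in 27 of the 34 tested members, with a median of 0.253, beside a median of 0.00844 and 51.6% above 0 over all tested genes. The median of the members was positive in each same-numbered pair, at 0.302 between the females, 0.146 between the libraries named male 1 and 0.351 between those named male 2. In all 3 pairs 17 members were higher in FXR-/-, where 20.4% of all genes were, and 1 was lower, where 18.9% of all genes were. For 4 members every library of one genotype lay above all of the other, each time higher in FXR-/- (Lamc1, Itga3, Itga5 and Itga7), beside 8.02% of all genes higher without overlap and 7.36% lower. Summed over the members, the level was 740 ± 7.75 CPM in FXR+/+ and 811 ± 21.6 CPM in FXR-/- (SD, n = 3 each). This separation rests on the TMM scaling. As a share of all counts, the members held 0.0784, 0.0731 and 0.078% in FXR+/+. In FXR-/- they held 0.0883, 0.0737 and 0.0742%, so the genotypes overlapped.

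The count of 7 higher members depended on single libraries. It was 4 higher members without the FXR+/+ female (beside 4.75% of all genes) or without the FXR-/- female (4.8%). With 1 female in each genotype, the sex term takes up the remaining female, so both fits compare the males alone. It was 13 without FXR+/+ male 1 (8.63%), and 3 without FXR+/+ male 2 (3.96%) or without FXR-/- male 1 (3.43%). The median log2 fold change of the members was 0.153 without FXR+/+ male 2, 0.165 without FXR-/- male 1 and 0.353 without FXR+/+ male 1. Without both male 1 libraries, a choice made after seeing the data, 12 members were higher at an unadjusted p under 0.05, beside 9.34% of all genes. In that fit Itgad had an adjusted p under 0.05 and was the 1 member called, beside 1.59% of all genes.

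**Figure D2:**
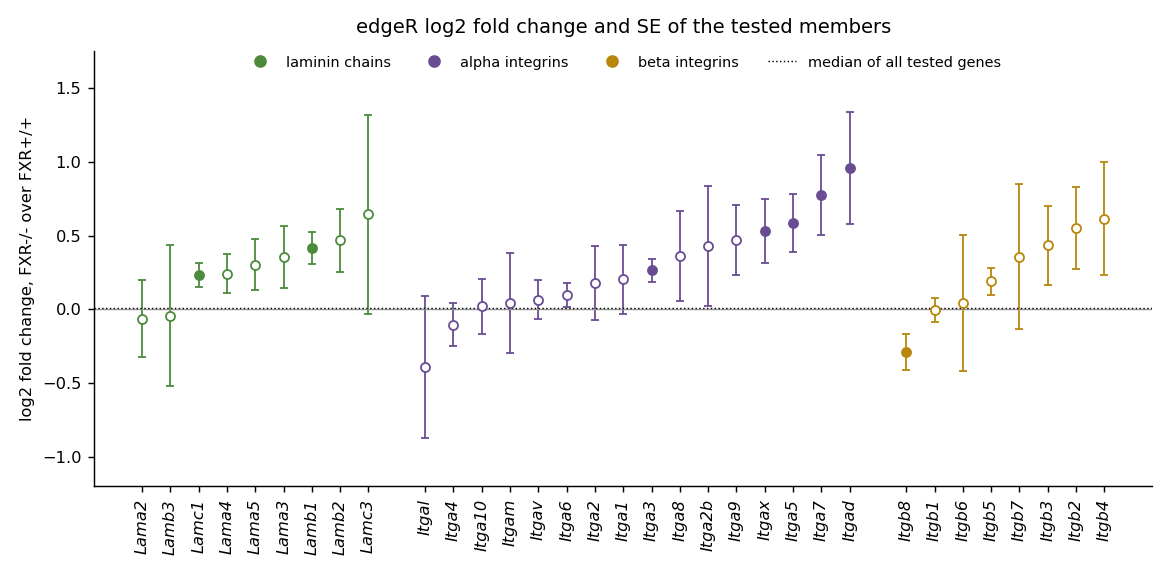
edgeR log2 fold change (FXR-/- over FXR+/+) with its SE for 33 of the 34 tested members, grouped by chain; filled points have an unadjusted p under 0.05 and the dotted line is the median of all tested genes, 0.00844. Most points lie above 0, and Itgb8 is the filled point below it.

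Lamb1 encodes the laminin beta1 chain, found in most vascular laminins (NCBI gene 16777; GRCm38.p6 chr12:31265146-31329644). Its level was 17.7, 22.4 and 20.5 CPM in FXR+/+ and 21.5, 32.3 and 27.5 CPM in FXR-/-. Each FXR-/- library was above its same-numbered FXR+/+ library, but the FXR-/- female lay below FXR+/+ male 1, so the groups overlapped. Its log2 fold change was 0.42 ± 0.107 (SE, with an edgeR adjusted p of 0.367). Itgb8 encodes the beta8 chain, which pairs with alpha v to bind latent TGF-beta (NCBI gene 320910; chr12:119162803-119238276), and it was the only member lower at an unadjusted p under 0.05.

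The alpha chains of laminin, which carry the cell-binding end, showed no difference that passed the test. Lama5, the main alpha chain of mature vessels, had 17.9, 27.6 and 18.1 CPM in FXR+/+ and 23.3, 30.8 and 24.0 CPM in FXR-/-, with a log2 fold change of 0.30. Male 1 was the highest library in each genotype, and the groups overlapped. The log2 fold changes were 0.24 for Lama4, the other endothelial chain, 0.36 for Lama3, the alpha chain of epithelial basement membranes, and -0.06 for Lama2, the alpha chain around muscle and Schwann cells. No alpha chain had an unadjusted p under 0.05 in the fit with sex. Under the replicate block Lama3, Lama4 and Lama5 did, all higher, beside 9.82% of all tested genes.

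Of the 6 beta and gamma chains, 2 had an unadjusted p under 0.05, both higher, beside 6.18% of all tested genes. Lamc1, the gamma chain of nearly all vascular laminins (chr1:153218922-153332786), had 50.1, 57.1 and 54.4 CPM in FXR+/+ and 57.9, 70.7 and 61.5 CPM in FXR-/-. The lowest FXR-/- library was above the highest FXR+/+ library. This gave a log2 fold change of 0.23 ± 0.0837 (SE, with an edgeR adjusted p of 0.452).
Lamb2, the chain that takes the place of beta1 in mature basement membranes, had 14.0, 19.7 and 12.6 CPM in FXR+/+ and 18.9, 27.6 and 17.5 CPM in FXR-/-. Each pair was higher in FXR-/-, but male 1 stood above the other libraries in both genotypes, so the groups overlapped. Its log2 fold change was 0.47, with an edgeR adjusted p of 0.486, and 0.0973 under the replicate block, the lowest of any member in that fit. With a term for endothelial RNA its log2 fold change was -0.15.

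A pair of epithelial chains was highest in the male 1 libraries, as were other members such as Lamb1, Lamc1, Lama5 and Itga3. Lamb3, a beta chain of epithelial laminin, had 1.49, 7.68 and 2.15 CPM in FXR+/+ and 1.74, 5.68 and 3.07 CPM in FXR-/-, and Itgb4, the beta chain of the receptor that anchors epithelial cells to the basement membrane, had 3.84, 9.12 and 3.16 CPM in FXR+/+ and 6.20, 11.4 and 6.69 CPM in FXR-/-. Both genes were highest in male 1 of each genotype, the libraries with the most acinar RNA. With a term for acinar RNA in edgeR, Lama2 and Lamb3 were lower at an unadjusted p under 0.05, beside 3.25% of all genes. The median log2 fold change of the members was 0.175 in that fit. What part of these levels came from acinar RNA was not tested.

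Among integrin chains that bind laminin, Itga3, Itga6, Itga7 and Itgb4 had log2 fold changes of 0.10 to 0.77, with a median of 0.44. The higher values were those of Itga7 and Itgb4, the least abundant of them. Itgb1, described next, was not in this list and had a log2 fold change of -0.01. Itga3, the alpha3 chain that binds alpha3 and alpha5 laminins (chr11:95044475-95076844), had 46.5, 50.0 and 45.2 CPM in FXR+/+ and 55.0, 58.6 and 56.6 CPM in FXR-/-. All FXR-/- libraries were above all FXR+/+ libraries, and the spread within each genotype was the smallest of the members higher at an unadjusted p under 0.05, relative to the level. It had a log2 fold change of 0.26 ± 0.0785 (SE, with an edgeR adjusted p of 0.430).
Itga7, the alpha7 chain of muscle and vessel wall cells (chr10:128933421-128958286), had 3.71, 5.15 and 2.68 CPM in FXR+/+ and 5.39, 8.31 and 6.06 CPM in FXR-/-. The groups did not overlap, although the FXR-/- female was only just above FXR+/+ male 1. The log2 fold change was 0.77 ± 0.270 (SE, with an edgeR adjusted p of 0.450, and 0.108 under the replicate block). Itga6, the alpha6 chain, had 41.7, 42.4 and 45.0 CPM in FXR+/+ and 46.3, 48.3 and 43.3 CPM in FXR-/-. The groups overlapped, and the log2 fold change was 0.10.

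Itgb1 pairs with most alpha chains of laminin, collagen and fibronectin receptors. Its level was 192, 175 and 196 CPM in FXR+/+ and 190, 180 and 190 CPM in FXR-/-, with a log2 fold change of -0.01. The most abundant member thus differed by less than the spread between libraries. The collagen-binding alpha chains Itga1, Itga2 and Itga10 had log2 fold changes of 0.02 to 0.20, with overlapping groups.

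Of the alpha chains that bind the RGD motif of fibronectin and vitronectin, Itga5 stood out. Itga5, the fibronectin receptor chain (chr15:103344286-103366791), had 3.32, 5.80 and 4.17 CPM in FXR+/+ and 6.0, 7.47 and 6.19 CPM in FXR-/-. The groups did not overlap, but FXR+/+ male 1 lay close to the lowest FXR-/- library. Its log2 fold change was 0.59 ± 0.196 (SE, with an edgeR adjusted p of 0.435).
Itga5 was the one of the 4 non-overlapping members with a RefSeq promoter at hand that lay wholly outside the gene, so the 250 bases before its start site are shown (GRCm38.p6, chr15:103366792-103367041, minus strand), 5′ to 3′ on the strand of the gene, with each GC box (GGGCGG on either strand, a site of general promoter factors) in capitals.
Itga5: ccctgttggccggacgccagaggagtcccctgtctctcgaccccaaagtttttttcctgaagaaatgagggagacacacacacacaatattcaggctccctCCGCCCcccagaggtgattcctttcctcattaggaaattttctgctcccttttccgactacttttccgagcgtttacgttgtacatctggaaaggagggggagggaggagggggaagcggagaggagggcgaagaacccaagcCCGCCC
The stretch holds 2 GC boxes at a GC content of 55.6%. RefSeq promoters of 300 bases, which run 250 bases before and on past the start, were at hand for 23 of the 37 members (26 promoters). A GC box was in 12 of these 26 promoters (46.2%), beside 35.7% of all 32851 promoters. The half-site of nuclear receptors such as FXR, AGGTCA on either strand, was in 0 of the 26 member promoters and in 16.3% of all promoters. The inverted repeat that FXR is known to bind, AGGTCANTGACCT, which contains 2 half-sites, was in 0 member promoters and in 0.00913% of all promoters. These matches describe the letters in short windows and say nothing of where FXR binds.

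Itgav, the alpha v chain, had 126, 101 and 139 CPM in FXR+/+ and 142, 111 and 131 CPM in FXR-/-, and Itgb5, a beta chain that pairs with it, had 53.3, 43.7 and 46.9 CPM in FXR+/+ and 53.8, 57.4 and 52.8 CPM in FXR-/-. Both overlapped between the genotypes, with log2 fold changes of 0.07 and 0.19. Itgb8 had 13.5, 13.0 and 11.6 CPM in FXR+/+ and 12.0, 9.10 and 10.2 CPM in FXR-/-. Each pair was lower in FXR-/-, while the FXR-/- female lay above FXR+/+ male 2. Its log2 fold change was -0.29 ± 0.122 (SE, with an edgeR adjusted p of 0.480).
Itga4, the alpha4 chain that binds VCAM-1 and fibronectin, had 43.9, 41.6 and 48.3 CPM in FXR+/+ and 53.8, 32.8 and 40.3 CPM in FXR-/-. The FXR-/- female was the highest library and both FXR-/- males the lowest, with a log2 fold change of -0.10. The chains not yet named, Itga2b of platelets, Itga8 and Itga9 of mesenchymal and other cells, Itgb3, Itgb6, Itgb7 and Lamc3, had log2 fold changes of 0.04 to 0.64 and no unadjusted p under 0.05, under the replicate block as well.

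**Figure D3:**
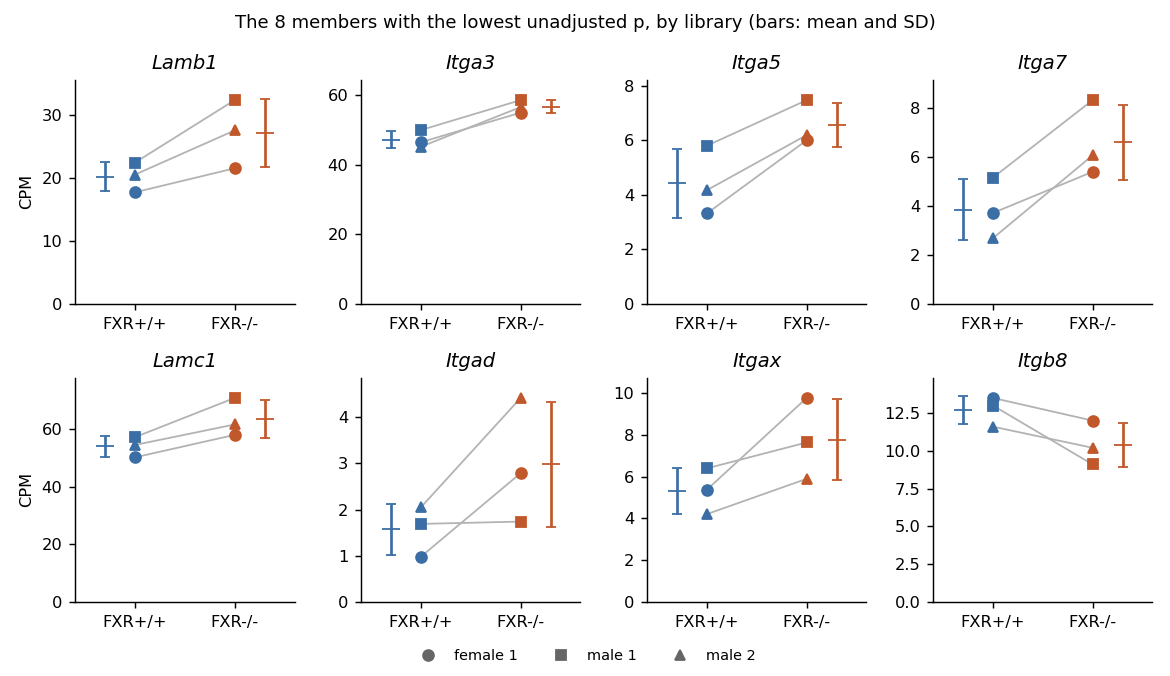
CPM of the 8 members with an unadjusted p under 0.05, by library; grey lines join same-numbered libraries, and the bars give the mean and SD of each genotype (n = 3). All lines of Lamb1, Itga3, Itga5, Itga7 and Lamc1 slope up and those of Itgb8 slope down, while Itgad in male 1 goes only from 1.69 to 1.74 CPM.

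Of the leukocyte chains, Itgax and Itgb2 lay on the positive side and Itgal on the negative side, and none passed the test. Itgax, the alpha X chain of dendritic cells and tissue macrophages (chr7:128129526-128150657), had 5.37, 6.39 and 4.20 CPM in FXR+/+ and 9.76, 7.63 and 5.89 CPM in FXR-/-. The FXR-/- female was the highest and the groups overlapped in FXR-/- male 2. The log2 fold change was 0.53 ± 0.219 (SE, with an edgeR adjusted p of 0.478), but -0.37 where the counts of its listed exons were summed in place of the gene count. Itgb2, the beta chain shared by the leukocyte integrins, had 3.24, 4.31 and 2.18 CPM in FXR+/+ and 5.02, 5.26 and 3.87 CPM in FXR-/-, and stood at 0.55 on the log2 fold change scale with an edgeR adjusted p of 0.501.
Itgal, the alpha L chain of lymphocytes, had 2.60, 5.40 and 1.45 CPM in FXR+/+ and 2.96, 1.68 and 2.40 CPM in FXR-/-, and its log2 fold change was -0.39, the lowest of the members. FXR+/+ male 1 was the highest library. The B cell marker Ms4a1 was at 4.81 CPM in that library and at most 0.526 CPM in any other. Itgam, the alpha M chain of myeloid cells, was at most 1.09 CPM in any library, and 68.7% of its exon bases are shared with an overlapping gene model (Gm49368), so its value is uncertain. The same holds for Itga10, which shares 33.5% of its exon bases with Gm42957.

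Markers of macrophages and lymphocytes lay on opposite sides of 0 beside these chains. Of the 8 macrophage markers 4 had an unadjusted p under 0.05, all higher in FXR-/-, beside 6.18% of all tested genes. Their median log2 fold change was 0.43, and their summed level was 105 to 135 CPM in FXR+/+ and 138 to 169 CPM in FXR-/-. Of the 9 lymphocyte markers 4 were tested and 1 (Cd79a) had an unadjusted p under 0.05, lower in FXR-/-, beside 4.15% of all tested genes. Their median was -0.86, with summed levels of 20.9 to 46.5 and 16.0 to 26.7 CPM. The part of these cells in the leukocyte integrins was not tested. In bulk islet RNA, fewer cells of a type and less RNA per cell cannot be told apart. Of the 5 platelet markers 4 were under 1 CPM in every library.

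Itgad, the alpha D chain of some macrophages, had the highest log2 fold change of the members, but its reads lie next to Cox6a2, the gene at the centre of the study. Its level was 0.980, 1.69 and 2.05 CPM in FXR+/+ and 2.79, 1.74 and 4.42 CPM in FXR-/-, with a log2 fold change of 0.96 ± 0.378 (SE, with an edgeR adjusted p of 0.466). The FXR-/- libraries ranged from just above FXR+/+ male 1 to more than all others, and the groups overlapped. Without both male 1 libraries it was 1.27, with an edgeR adjusted p of 0.0421.
The exon table lists 6 exons of Itgad, numbers 25 and 27 to 31, which cover the last 2549 bases of a gene of 31572 bases (chr7:128173933-128205504, plus strand). Exons 1 to 24 are not listed, and the table lists only exons with at least 1 count. The last exon overlaps Cox6a2, which lies on the minus strand, by 69 bases. Of the Itgad exon bases, 19.7% are shared with overlapping gene models (4931431B13Rik, Gm17831, Gm39091 and Cox6a2), so its value is uncertain. Over all 6 libraries the listed exons held 79.6% of the Itgad gene count. Over all genes, exon counts came to 32.31 to 36.6% of the gene counts by library. The listed exons held 102 counts in FXR+/+ and 160 in FXR-/-, and 82 and 132 without the overlapping exon.
Cox6a2, a subunit of the last complex of the respiratory chain, was higher in every FXR-/- library, at 58.7, 69.8 and 99.9 CPM beside 30.9, 33.0 and 40.3 CPM, and the log2 fold change was 1.12 with an edgeR adjusted p of 0.198. The Itgad count was 2.48 to 5.11% of the Cox6a2 count of the same library. Whether the reads were counted by strand is not given in the sources used here, so reads of Itgad and of transcripts from the Cox6a2 side cannot be told apart, and their part in the Itgad value was not tested.

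**Figure D4:**
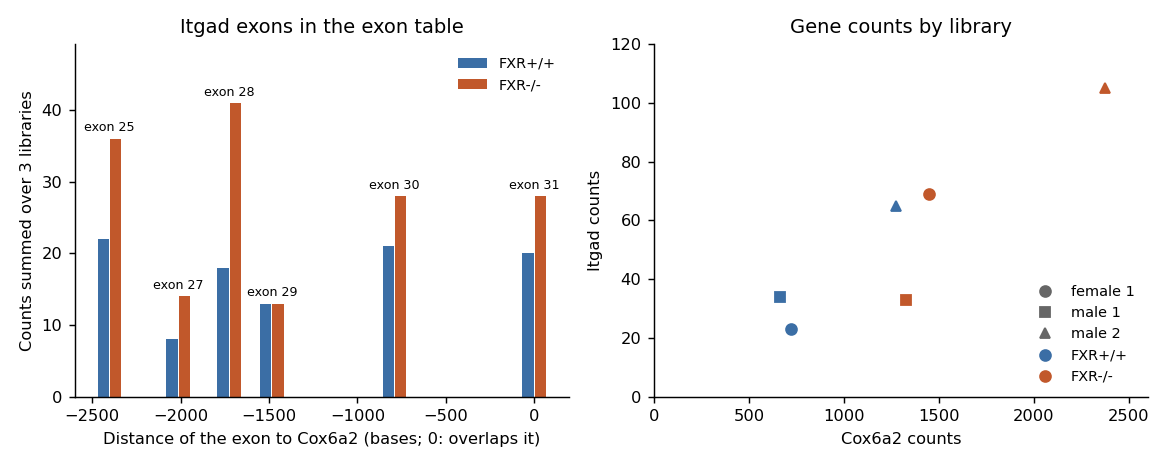
Left, counts of the listed Itgad exons summed over 3 libraries of each genotype against their distance to Cox6a2 in bases; right, Itgad against Cox6a2 gene counts in the 6 libraries. The listed exons all lie within 2402 bases of Cox6a2, and the library with the most Cox6a2 counts, FXR-/- male 2, also has the most Itgad counts. In male 1, however, Cox6a2 has 665 counts in FXR+/+ and 1328 in FXR-/-, while Itgad has 34 and 33.

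At the level of single exons, 40 exons of 25 members could be tested and 0 were called at an adjusted p under 0.05, beside 0.0185% of all tested exons. The first exon of Itgb1 stood at 0.90 on the log2 scale with an edgeR adjusted p of 0.624, while its last exon, which holds most of its exon counts, had 0.01.

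The genes that work with laminins and integrins also had mostly positive log2 fold changes. Beside the counts below, 6.18% of all tested genes were higher at an unadjusted p under 0.05 in edgeR. An adjusted p under 0.05 was found for 0.157% of all genes under the replicate block and for 1.06% with DESeq2. Of 12 tested basement membrane partners, 3 had an unadjusted p under 0.05, all higher in FXR-/- (Col15a1, Agrn and Col4a2), and the median log2 fold change was 0.37. Col4a1, also on this list, was not in the count table under that symbol, so this collagen IV chain has no value here. Col15a1, a collagen that links the basement membrane to the tissue beneath, had 26.9, 46.7 and 28.8 CPM in FXR+/+ and 41.2, 67.9 and 48.0 CPM in FXR-/-. All 3 pairs were higher while the groups overlapped, and the log2 fold change was 0.62, with an edgeR adjusted p of 0.430, and 0.0458 under the replicate block. Of 8 other laminin receptors, 2 had an unadjusted p under 0.05, both higher (Sdc3 and Sdc4), with a median of 0.20. Sdc4, the syndecan of focal adhesions, had 44.5, 48.0 and 45.8 CPM in FXR+/+ and 66.1, 83.9 and 59.8 CPM in FXR-/-. The groups did not overlap, with a log2 fold change of 0.60, an adjusted p of 0.282 in edgeR and one of 0.00809 in DESeq2.
Of 17 other integrin ligands tested, 2 had an unadjusted p under 0.05, both higher (Spp1 and Tgfb1), with a median of 0.45. Spp1, osteopontin, a ligand of alpha v and alpha4 integrins, had 15.9, 23.3 and 11.8 CPM in FXR+/+ and 39.9, 32.7 and 35.4 CPM in FXR-/-. The groups did not overlap, with a log2 fold change of 1.08, an adjusted p of 0.286 in edgeR and one of 0.00159 in DESeq2. Of 33 adaptors that link integrins to the cytoskeleton or activate them, 4 had an unadjusted p under 0.05, all higher (Cd81, Bcar1, Parva and Pxn), with a median of 0.11.

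Endothelial marker genes lay on the positive side in FXR-/- beside the laminins and their partners. At an adjusted p under 0.05, 0 of the 10 were called in edgeR with sex or under the replicate block. With DESeq2 2 were called, beside 1.06% of all genes. All 10 endothelial markers were higher in FXR-/- in every pair, beside 20.4% of all genes. Of them 8 had an unadjusted p under 0.05 in edgeR, beside 6.18% of all genes. Their median log2 fold change was 0.55, above the 0.27 of the 10 tested laminins. The summed endothelial level was 575, 664 and 559 CPM in FXR+/+ and 699, 1120 and 762 CPM in FXR-/-. The summed laminin level was 163, 205 and 162 CPM in FXR+/+ and 193, 240 and 196 CPM in FXR-/-. Male 1 was the highest library of each genotype on both sums, and only the endothelial sums did not overlap.
With the log2 share of endothelial RNA as a further term, chosen after seeing the data, the median log2 fold change of the members was 0.06, beside 0.01 over all genes, and 1 member was higher at an unadjusted p under 0.05 (Itgad), beside 2.02% of all genes. In that fit Lamb1 had a log2 fold change of 0.19 and Lamc1 of 0.07. The endothelial term itself separated the genotypes, so it takes up part of the genotype difference by construction.
Stellate cell, fibroblast and pericyte markers had a median log2 fold change of 0.74. Of these 12, 1 was higher at an unadjusted p under 0.05, beside 6.18% of all genes. Their summed levels were 170 to 296 CPM in FXR+/+ and 258 to 336 CPM in FXR-/-. Schwann cell markers had a median of 0.61, with 2 of 6 higher at an unadjusted p under 0.05, beside the same share. Ductal markers had a median of 0.37, but their summed level was 295 ± 27.0 CPM in FXR+/+ and 285 ± 21.8 CPM in FXR-/- (SD, n = 3 each), with overlapping libraries. The 20 acinar markers had a median of 0.44, with 18 above 0 and 0 at an unadjusted p under 0.05. In all 3 pairs 17 of them were higher, beside 20.4% of all genes. The part of these cell types in the laminin and integrin values was not tested.

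**Figure D5:**
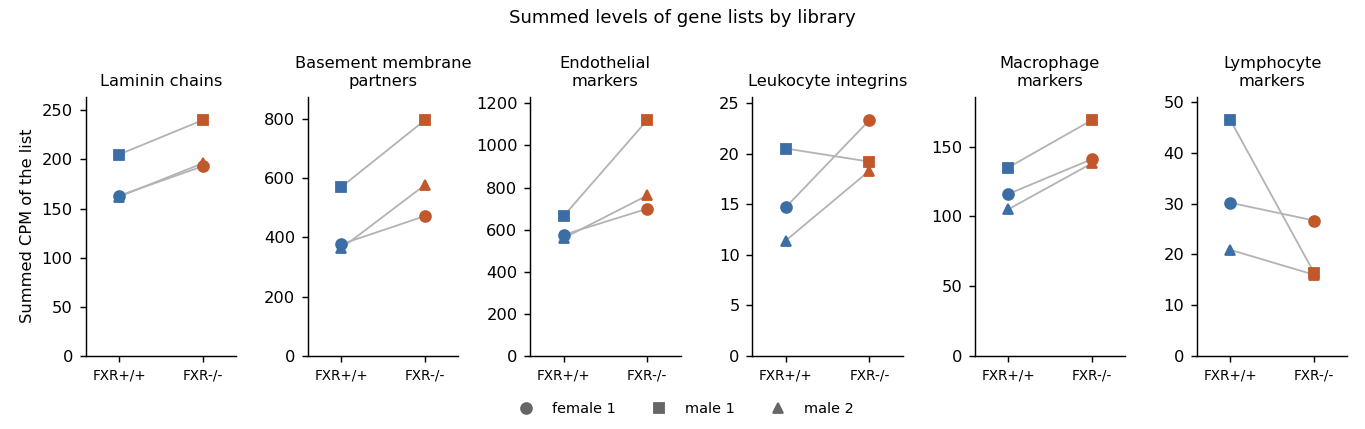
Summed CPM of 6 gene lists by library, with same-numbered libraries joined by grey lines. Laminins, their basement membrane partners and endothelial and macrophage markers are higher in FXR-/- in each pair, while lymphocyte markers are lower in each pair and highest in FXR+/+ male 1 at 46.5 CPM.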

How the data were processed

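The authors sequenced poly(A) RNA of islets and deposited raw read counts per gene and per exon for 6 libraries; HISAT is named in the submitters' processing notes, while the counter, strand setting and genome build are not given in the sources used here. Exon counts came to 32.31 to 36.6% of the gene counts. Deposited tables of the authors' own comparison (means, fold changes and p-values) were not used. Genes passing filterByExpr (minimum count 10, minimum total 15) were scaled by TMM and tested with edgeR 4.0.16 (R 4.3.3) by the quasi-likelihood F test with sex and genotype as terms, on 3 residual and 4.43 prior degrees of freedom, with Benjamini-Hochberg adjustment. DESeq2 1.42.0 and the other settings of the closing section were alternatives. The code was tested on simulated counts. Same-numbered libraries deviated together from their group means (correlations 0.373, 0.419 and 0.346, those of other pairs at most 0.0628), so the replicate block was taken as a pairing. The labels number the males but give no pairing of mice or batches, so this pairing rests on these same data. Lengths were the union of GENCODE vM21 exons; gene positions and promoters are RefSeq GRCm38.p6, and exon positions are those in the exon table. Members named with values in every library had an unadjusted p under 0.05, or were among the 3 laminins, 4 alpha and 3 beta integrins with the highest CPM per kb, or did not overlap between genotypes with a log2 fold change of at least 0.5, or overlap Cox6a2 (Itgad). A further few, such as Lamb3, Itgb4, Itgal, Itgb2 and Lama5, were chosen after their values were seen. The members and gene lists were chosen with earlier results of these data known. 1 gene of the rule, while counted among the members, is not reported here by its own values.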

Additional observations from a re-analysis of the deposited data

How the results depend on the processing

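Of 252 log2 fold changes of named members under alternatives, 237 kept their direction and their side of the adjusted threshold. Itga3 and Lamb1 had an unadjusted p under 0.05 in 16 of 18 alternatives each. The fits in males alone and without either female make the same comparison, so they are not separate checks. Members higher in FXR-/- at an unadjusted p under 0.05 numbered 13 under the replicate block (beside 9.82% of all genes), 3 with library size alone (2.99%), 3 with summed exon counts (5.78%), 4 in males alone (4.76%), 1 with the endothelial term (2.02%), 12 without the male 1 pair (9.34%), and 3 to 13 with 1 library left out (3.43 to 8.63%). Members lower numbered 2 with the acinar term and 0 without the sex term, with DESeq2, with at least 10 counts in every library, with summed exon counts, in males alone, without the male 1 pair and with any 1 library left out. All genes called numbered 23 under the replicate block, 158 with DESeq2, 4 with summed exon counts, 5 with the acinar term and 235 without the male 1 pair, where 1 member (Itgad) was called. The median log2 fold change of the members was 0.0606 with the endothelial term and 0.175 with the acinar term. It was 0.365 without the male 1 pair and 0.153 to 0.353 with 1 library left out. The replicate block changed no call among the members. Library size alone moved the median of all genes to -0.0866 and that of the members to 0.160. The causes were not tested.

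Over all 34 tested members, 12 kept the sign of their log2 fold change in every alternative and 22 did not, among them Lama5, Lamb3, Itgb4 and Itgal. Of the members named by rule, 6 turned. Itga4 was 0.26 with the endothelial term, 0.00856 without the male 1 pair and -0.301 to 0.0325 with 1 library left out (0.019 without FXR+/+ male 2, 0.0325 without FXR-/- male 1). Library size alone gave -0.00133 for Itga6 and -0.0324 for Itgav, which was -0.0442 (without FXR+/+ male 1) to 0.22 with 1 library left out. Itgax was -0.373 with summed exon counts. Itgb1 was 0.0375 with summed exon counts, 0.0421 with the acinar term, 0.084 with the endothelial term and -0.057 to 0.0414 with 1 library left out, above 0 without FXR-/- male 1 (0.0118) or FXR+/+ male 2. Lamb2 was -0.153 with the endothelial term. With 3 libraries a genotype, genes under about 5 CPM, such as Itgad, rest on few counts.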
